A study of Homo sapiens with 16 samples.

Results

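CDK6 and 9 other regulators of the G1 phase of the cell cycle were followed in glioblastoma cells that had received a mimic of miR-137. The 10 genes (CDK6, CDK4, CDK2, CCND1, CCND2, CCND3, CCNE2, CDKN1B, CDKN2C and RB1) were taken by symbol from the deposited tables, which hold 20314 genes for U251 and 20626 for U343, and all 10 are in both. U251 and U343 are established human glioblastoma cell lines. Both received 25 nM of a mimic, either miR-137 or control, so every library comes from mimic-treated cells, and RNA for RNASeq was collected after 48 hours. RNASeq measured total RNA depleted of ribosomal RNA, and RIPSeq measured RNA immunoprecipitated with a mixture of antibodies against poly(A)-binding protein (PABP), which coats the tails of mRNAs. Each of the 4 experiments (U251 RNASeq, U251 RIPSeq, U343 RNASeq and U343 RIPSeq) had 2 control and 2 miR-137 libraries, 16 in all. The labels number these replicates without saying whether they were separate cultures, so p-values measure the spread between libraries, which may be technical.

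D-type cyclins (CCND1, CCND2, CCND3) bind the kinases CDK4 and CDK6, and the complexes phosphorylate the retinoblastoma protein RB1 as cells leave G1. Phosphorylated RB1 releases E2F transcription factors, which switch on cyclin E genes and the genes of DNA replication, and cyclin E with CDK2 completes the phosphorylation. CDKN2C blocks CDK4 and CDK6, and CDKN1B blocks cyclin E-CDK2. In glioblastoma this pathway is often altered, by loss of CDKN2A and CDKN2B, loss of RB1 or gain of CDK4 or CDK6.

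The mimic stands for the mature miRNA, which is shown because its seed, bases 2 to 8 from the 5′ end, is the part that pairs with target mRNAs. The mature sequence is given from RefSeq, on the minus strand at chr1:98046091-98046113 of GRCh38.p14, 5′ to 3′, with the seed in capitals.
hsa-miR-137-3p: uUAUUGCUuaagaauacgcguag
The letters of an mRNA that pair with this seed are AGCAAUA, and of 2370 mature miRNA names in the RefSeq table only 1, hsa-miR-137-3p itself, carries the seed. Target sites in the 10 mRNAs were not analysed here.

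Counted reads ranged from 10156675 to 18224061 per library in U251 RNASeq, 22359794 to 30731476 in U251 RIPSeq, 37952273 to 45134766 in U343 RNASeq and 37736206 to 45055184 in U343 RIPSeq. All 7 glioma or astrocyte markers (VIM, NES, CD44, S100B, SOX2, FABP7, GFAP) had reads, and together they took 6302 to 16320 RPM (reads per 1000000 counted reads). VIM alone took 3631 to 9505 RPM. S100B had only 2 and 3 reads in the U251 RNASeq miR-137 libraries (0.195 and 0.295 RPM), no more than the leukocyte marker PTPRC there (0.197 and 0.780). The 8 leukocyte, endothelial and epithelial markers summed to 0.604 to 6.17 RPM in U251 and 94.1 to 151 in U343. Most of the U343 sum was the epithelial marker CDH1, at 61.6 to 123 RPM, above the glioma marker FABP7 there (11.3 to 30.8). The endothelial markers CDH5 (7.58 to 30.9) and VWF (5.82 to 28.9) added to it. Some libraries stood apart. The U251 RIPSeq control libraries differed from each other with a median absolute log2 ratio of 0.68 over genes, against 0.06 between the U251 RIPSeq miR-137 libraries. Replicate 1 of those controls also held 51.2 RPM on olfactory receptor genes, used as a measure of background, against 11.1 in replicate 2. In U251 RNASeq this background differed with the mimic, at 3.61 and 4.88 RPM in the controls and 22.1 and 13.1 with miR-137. Those miR-137 libraries also had fewer counted reads (10260834 and 10156675) than their controls (16886287 and 18224061). The part of background and depth in the U251 RNASeq results was not tested. In U343 RNASeq, replicate 1 of miR-137 held 242 RPM on 12 interferon-stimulated genes, close to its controls (245 and 257), while replicate 2 held 13161. The other 6 miR-137 libraries held 11192 to 13110 and the 8 control libraries 157 to 257. Levels below are counts per 1000000 reads (CPM) of library totals scaled by the TMM method of edgeR, which corrects for library composition. The scaling was done within each experiment, so CPM of different experiments are not on a common scale. Levels are compared between libraries of 1 gene, never between genes, because gene lengths were not used. In bulk RNA, a change in the number of cells in a cycle phase and a change in RNA per cell cannot be told apart.

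CDK6, the kinase partner of D-type cyclins that spans chr7:92072173-92303877 in hg18, was 6.87 to 11.6 times lower with miR-137 in the 4 experiments and passed the test in 3 of them, all but U251 RIPSeq. In U251 RNASeq it stood at 1540.2 and 1602 CPM in the control libraries and at 149 and 122 in the miR-137 libraries. In U251 RIPSeq the controls held 317 and 927 CPM and the miR-137 libraries 54.2 and 53.7. The groups did not overlap in either assay, although the U251 RIPSeq controls lay far apart. In U343 RNASeq CDK6 was at 544 and 643 CPM with the control mimic and at 81.3 and 91.6 with miR-137. In U343 RIPSeq the values were 353 and 311 CPM in the controls and 39.2 and 33.2 with miR-137. Here too each miR-137 library lay below both controls. So within each experiment the highest miR-137 level was below the lowest control level, and CPM were not compared across experiments.

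The fall of CDK6 was -3.53 on the log2 scale (SE 0.17, adjusted p = 1.6e-09) in U251 RNASeq, -2.78 (SE 0.14, adjusted p = 0.0065) in U343 RNASeq and -3.20 (SE 0.12, adjusted p = 1.7e-06) in U343 RIPSeq, by edgeR's quasi-likelihood test with Benjamini-Hochberg adjustment over all genes tested. In U251 RIPSeq the estimate was the same as in RNASeq, -3.53, but its SE was 0.59 and its 95% interval ran from -5.07 to -1.99. Its adjusted p was 0.080, so it was not called. DESeq2 called it (-3.55, adjusted p = 3.6e-08), and so did edgeR in a joint fit of U251 RNASeq and RIPSeq. Over 8 alternative settings with all libraries kept, by edgeR or DESeq2, its adjusted p ran from 8.2e-11 to 0.16. Without control replicate 1 the U251 RIPSeq value was -4.11 and without control replicate 2 it was -2.47, each fitted with 1 control library that was assumed to vary like the miR-137 pair. Among all genes tested, ordered from the most negative log2 fold change, CDK6 ranked 14 of 13052 in U251 RNASeq, 7 of 14087 in U251 RIPSeq, 9 of 15088 in U343 RNASeq and 10 of 14866 in U343 RIPSeq.

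In U343 RNASeq, without control replicate 1 or 2 the log2 fold change of CDK6 was -2.89 or -2.65 and the adjusted p 0.15 or 0.17. These fits called 0 of 15426 and 0 of 15539 genes, so no gene passed in them. The miR-137 libraries of that experiment are the pair that differed in interferon genes. CDK6 was low in both of them, at 81.3 CPM in the library with interferon genes at the control level and 91.6 CPM in the library with them high.

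**Figure D1:**
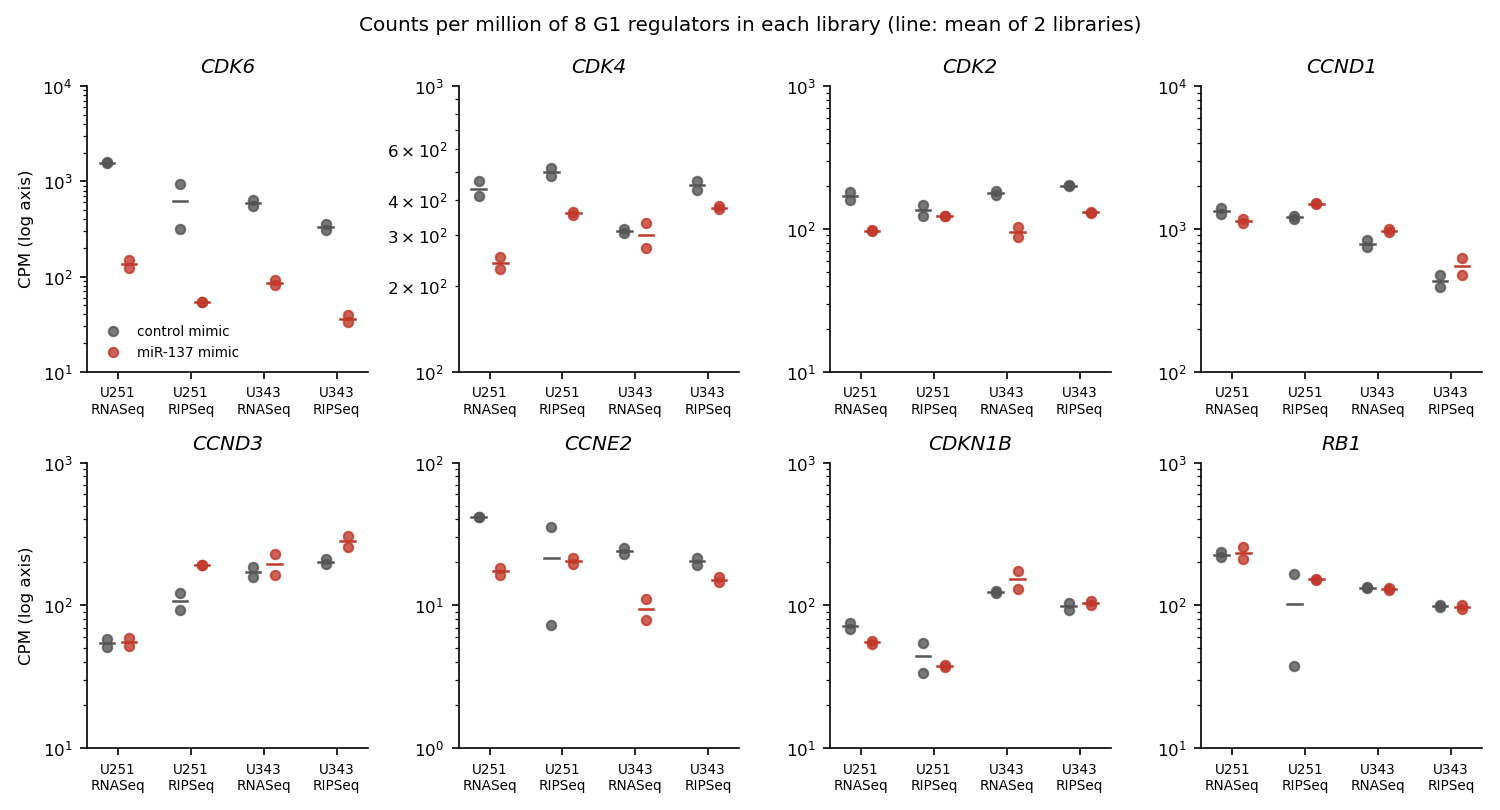
CPM (log axis), scaled within each experiment, of 8 regulators in each of the 16 libraries. Points are libraries, grey for the control mimic and red for the miR-137 mimic, and short lines are means of 2 libraries. The CDK6 libraries with miR-137 sit between 33.2 and 149 CPM, each below the control libraries of its own experiment. For RB1 the U251 RIPSeq control replicate 1 (37.9 CPM) stands below the other libraries of that experiment.

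CDK4, the other kinase that D-type cyclins activate, was lower by 1.82 times in U251 RNASeq and did not pass the threshold in the other experiments. In U251 RNASeq it was at 411 and 463 CPM in the controls and 229.8 and 251.4 with miR-137 (log2 fold change -0.86, SE 0.14, adjusted p = 0.00013). U251 RIPSeq gave 519 and 486 CPM against 353 and 363, also without overlap, with a log2 fold change of -0.49 and an adjusted p of 0.26. In U343 RNASeq the 307 and 317 CPM of the controls lay between the 332 and 272 of the miR-137 libraries, so the groups overlapped. U343 RIPSeq held 431 and 466 CPM in the controls and 379.9 and 371 with miR-137, and the log2 fold change of -0.26 had an adjusted p of 0.056. That value passed with DESeq2 (adjusted p = 0.030) and with library totals not scaled (adjusted p = 0.031). CDK4 shares 24 bases with TSPAN31 on its chromosome and has a pseudogene, CDK4P1, so some of its reads could belong elsewhere.

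CDK2, the partner of cyclin E, fell in U251 RNASeq and in both U343 experiments by 1.54 to 1.86 times. In U251 RNASeq it was at 161 and 182 CPM in the controls and 96.2 and 97.7 with miR-137 (log2 fold change -0.82, SE 0.13, adjusted p = 0.00012). In U343 RNASeq the levels were 184 and 173 CPM against 88.1 and 104 (-0.90, SE 0.12, adjusted p = 0.016), and in U343 RIPSeq 199 and 203 against 131 and 130.0 (-0.62, SE 0.08, adjusted p = 0.00049). In none of these experiments did the groups overlap. The U251 RIPSeq levels were 123 and 148 CPM in the controls and 124 in both miR-137 libraries, between the controls, with a log2 fold change of -0.13 and an interval from -0.75 to 0.48. Without control replicate 1 or 2 of U343 RNASeq the log2 fold change of CDK2 was -0.85 or -0.94 and the adjusted p 0.20 in both fits, in which no gene passed.

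Among the D-type cyclins, which switch on CDK4 and CDK6, none passed the test as lower in any experiment. CCND1 stood at 1391 and 1268 CPM in U251 RNASeq controls and 1172 and 1108 with miR-137 (log2 fold change -0.22, 95% interval -0.54 to 0.10), and the groups did not overlap. In the other 3 experiments its estimates were positive and below the threshold. U251 RIPSeq held 1232 and 1182 CPM in the controls and 1519.6 and 1490.4 with miR-137 (log2 fold change 0.32, adjusted p = 0.34), and U343 RNASeq held 832 and 742 against 996 and 946 (0.30, adjusted p = 0.094). These groups did not overlap. In U343 RIPSeq the controls at 394 and 475 CPM overlapped with the miR-137 libraries at 626 and 474, and the log2 fold change was 0.34 (adjusted p = 0.10). That value passed with library totals not scaled (0.34, adjusted p = 0.025) and without miR-137 replicate 2 (0.52, adjusted p = 0.016).

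CCND3 rose in U343 RIPSeq, from 194 and 211 CPM to 307 and 258, by 0.48 on the log2 scale (SE 0.11, adjusted p = 0.0076). Without control replicate 1 of that experiment the log2 fold change was 0.42 and the adjusted p 0.083. In the joint fit of U343 RNASeq and RIPSeq the adjusted p of the U343 RIPSeq rise was 0.073, so the call was lost. In U251 RIPSeq the difference was larger, 122 and 93.5 CPM against 191 and 192, with no overlap. The log2 fold change of 0.83 had an unadjusted p of 0.024 and an adjusted p of 0.19. The joint fit of U251 RNASeq and RIPSeq called CCND3 higher in U251 RIPSeq (adjusted p = 0.044). RNASeq showed less of a difference. U251 RNASeq held 51.0 and 58.0 CPM in the controls and 51.8 and 59.0 with miR-137, interleaved (log2 fold change 0.02). U343 RNASeq controls at 158 and 185 CPM overlapped with 163 and 228 in the miR-137 libraries (0.19), of which the higher value belonged to the library with interferon genes high, and the part of that difference in the result was not tested. RefSeq lists 2 pseudogenes of CCND3. CCND2 was near the limit of detection throughout, with 1 to 19 reads per library, always under 1 CPM. In U343 RNASeq it had 19 and 17 reads in the controls and 4 and 13 with miR-137, which did not overlap (adjusted p = 0.25). In U251 controls it had 2 and 3 reads in RNASeq and 18 and 12 in RIPSeq (adjusted p = 0.068 for PABP-bound against total RNA). CCND2 passed the test in no comparison, and at this depth a change could not be measured well.

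CCNE2, a cyclin E that activates CDK2, fell in the same 3 experiments as CDK2, by 1.34 to 2.55 times. In U251 RNASeq it was at 41.4 and 41.9 CPM in the controls and 16.4 and 18.3 with miR-137 (log2 fold change -1.26, SE 0.14, adjusted p = 7.2e-06). U343 RNASeq gave 25.4 and 22.9 CPM against 7.86 and 11.1 (-1.35, SE 0.21, adjusted p = 0.020), and U343 RIPSeq 19.3 and 21.3 against 14.5 and 15.7 (-0.42, SE 0.10, adjusted p = 0.0098). The groups were apart in all 3. In U251 RIPSeq the controls were at 7.32 and 35.3 CPM and the miR-137 libraries, at 19.6 and 21.4, lay between them. There the log2 fold change was -0.06 with an interval from -2.02 to 1.90. The U343 RNASeq call was lost without control replicate 1 or 2 (-1.26 or -1.42, adjusted p = 0.21 or 0.20), where no gene passed, and the U343 RIPSeq call without control replicate 2 or miR-137 replicate 1 (adjusted p = 0.061 or 0.056). The U251 RNASeq value kept its size, -1.25, when U251 RNASeq and RIPSeq were fitted jointly, but its adjusted p became 0.16. When U343 RNASeq and RIPSeq were fitted jointly, the U343 RIPSeq call was lost as well (adjusted p = 0.072). CCNE2, at chr8:95961629-95976658 in hg18, shares 269 bases with INTS8.

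CDKN1B, the p27 inhibitor of cyclin E-CDK2, passed the threshold in U251 RNASeq alone of the 4 experiments. There the controls held 75.8 and 68.3 CPM and the miR-137 libraries 53.6 and 56.7, a log2 fold change of -0.39 (SE 0.13, adjusted p = 0.020). This call was lost with upper-quartile normalization (-0.25, adjusted p = 0.12), with library totals not scaled (-0.12, adjusted p = 0.45), in the joint fit of U251 RNASeq and RIPSeq (-0.37, adjusted p = 0.30), without control replicate 1 (adjusted p = 0.15) and without miR-137 replicate 1 (adjusted p = 0.071). U251 RIPSeq held 33.9 and 54.5 CPM in the controls around 37.0 and 38.5 with miR-137. In U343 RNASeq the controls at 127 and 122 CPM were below the miR-137 libraries at 174 and 129.8 (log2 fold change 0.29, adjusted p = 0.28), the higher value being that of the library with interferon genes at the control level. U343 RIPSeq gave 93.3 and 104 CPM against 107 and 100.3, which overlapped.

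CDKN2C, the p18 inhibitor of CDK4 and CDK6, had 0 reads in all 16 libraries. A count of 0 allows up to 3 reads, which corresponds to 0.0976 to 0.295 RPM in the U251 libraries and 0.0665 to 0.0795 in the U343 libraries. These limits cover counting error only, since PCR reads without molecular identifiers are not independent molecules. Next to it on hg18 chromosome 1 in U251, FAF1 had 0 to 5 reads and DMRTA2 0 to 8, while RNF11, beyond C1orf185 on the other side, had 1346 to 6545. In U343 FAF1 had 1878 to 3125 reads, DMRTA2 430 to 1070 and RNF11 2933 to 5609. So CDKN2C was without reads in both lines, and FAF1 and DMRTA2 were near 0 only in U251. CDKN2B, a related inhibitor, had 0 reads in every U251 library and 6 to 18 in U343, and CDKN2A had 0 reads in U343 and was not analysed here in U251.

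RB1, the protein that CDK4 and CDK6 phosphorylate, did not pass the threshold in any experiment. U251 RNASeq held 218 and 235 CPM in the controls around which the miR-137 libraries lay at 255 and 212 (log2 fold change 0.05, 95% interval -0.25 to 0.34). U343 RNASeq gave 135 and 131 CPM against 128 and 132 (-0.03, interval -0.27 to 0.20), and U343 RIPSeq 101 and 96.8 against 100.3 and 93.9 (-0.03, interval -0.22 to 0.17). The libraries of these 3 experiments interleaved. In U251 RIPSeq, control replicate 1 held 37.9 CPM and replicate 2 held 165, against 152 and 151 with miR-137, so the estimate of 0.58 carried an interval from -1.27 to 2.43. RB1 contains LPAR6, with which it shares 33657 bases, but LPAR6 itself had 23 to 183 reads per library, against 885 to 6234 for RB1.

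Counted over the genes, U251 RNASeq had 5 of 8 tested members lower and 0 higher, where 29.0% of all tested genes were lower and 28.7% higher. The members' median log2 fold change was -0.60, against 0.02 over all genes tested. The split over all genes moved with the scaling, to 23.0% lower and 35.2% higher with upper-quartile normalization (members' median -0.46) and to 18.8% and 41.6% with library totals not scaled (-0.34). In the joint fit of U251 RNASeq and RIPSeq it was 9.40% and 11.4% (-0.37). In U343 RNASeq 3 of 9 were lower and 0 higher (background 11.7% lower and 8.31% higher, members' median -0.05 against 0.02). In U343 RIPSeq 3 of 9 were lower and 1 higher (27.8% and 28.5%, median -0.15 against 0.00), a share near the background. In U251 RIPSeq edgeR called 0 of 9 members (1.21% of all genes in either direction), with 1 lower and 1 higher at an unadjusted p under 0.05. DESeq2 called 1 lower, CDK6 (2.45% of all genes lower and 3.88% higher). Shares of all genes at an unadjusted p were not computed, so counts at that level, here and below, have no background. The miR-137 libraries lay below both controls for 6 of 8 members in U251 RNASeq (39.2% of all genes), 2 of 9 in U251 RIPSeq (25.8%), 4 of 9 in U343 RNASeq (32.9%) and 4 of 9 in U343 RIPSeq (38.8%). They lay above both for 0 (40.3% of all genes), 2 (29.1%), 2 (32.7%) and 1 (39.7%) members in the same order.

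**Figure D2:**
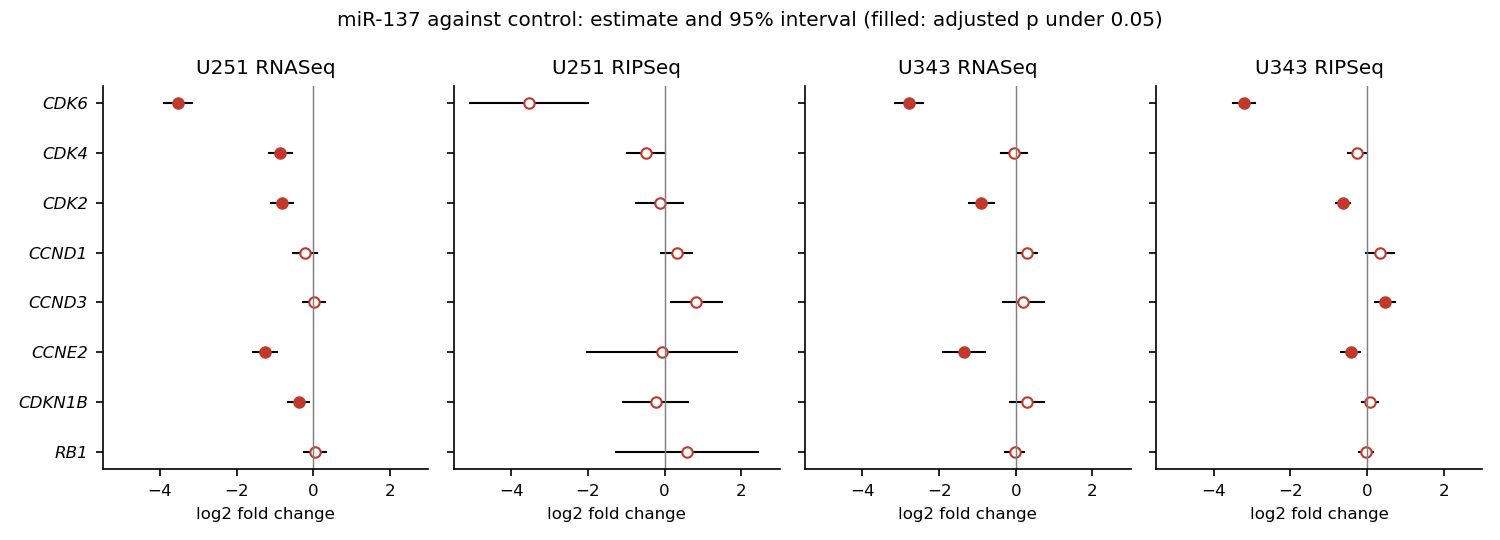
Log2 fold change of miR-137 against control (x axis) for 8 regulators in the 4 experiments, with lines for the 95% interval and filled points where the adjusted p of edgeR was under 0.05. CDK6 lies between -3.53 and -2.78 in all 4 panels, apart from the other regulators, and the U251 RIPSeq intervals are the widest for each of the 8 genes, as for CCNE2 from -2.02 to 1.90.

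The study's own rule sets each control library against each miR-137 library in a Fisher's exact test and requires, in all 4 pairs, that the odds ratio exceed 2 with an adjusted p below 0.001. CDK6 met it in every experiment, with odds ratios of 8.88 to 10.6 in U251 RNASeq, 5.92 to 15.4 in U251 RIPSeq, 6.30 to 7.80 in U343 RNASeq and 8.20 to 10.2 in U343 RIPSeq. CCNE2 met it in U343 RNASeq alone of the 4, with odds ratios of 2.13 to 3.26. So 1, 1, 2 and 1 of 10 members were lower by the rule, where 2.21%, 1.49%, 2.88% and 3.40% of all genes were. The study used the rule for falls only. Mirrored here for rises, it gave 0 members higher in each (6.14%, 3.47%, 1.51% and 4.83% of all genes). The rule treats reads as independent and does not use the spread between replicates.

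Whether miR-137 changed PABP-bound RNA differently from total RNA was tested as the difference between the RIPSeq and the RNASeq response within each line. For CDK6 it was -0.03 on the log2 scale in U251 (95% interval -1.36 to 1.30) and -0.42 in U343 (-0.88 to 0.05) and both intervals include 0. edgeR called 0 members in U251 (0.134% of all genes), with 2 at an unadjusted p under 0.05, CCND3 (0.75) and CDK2 (0.64). In U343 it also called 0 (0.00649% of all genes), with CCNE2 at an unadjusted p of 0.0061. The CCNE2 response was 0.93 log2 units less negative in PABP-bound than in total RNA of U343, with an adjusted p of 0.20 by edgeR and 0.030 by DESeq2. DESeq2 called 0 members in U251 (5.10% of all genes).

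With the control mimic alone, CDK6 was the only member to pass the threshold as lower in PABP-bound than in total RNA of both lines. The direction was not particular to it, since RB1 and CDKN1B also had negative estimates in both. Ordered from the most negative, CDK6, RB1 and CDKN1B ranked 1756, 2254 and 4057 of 14210 genes in U251. In U343 they ranked 1699, 4380 and 5376 of 15413. The level of CDK6 was 1540.2 and 1602 CPM in total and 317 and 927 in PABP-bound RNA of U251, each assay scaled on its own. In the edgeR fit of all libraries of the line, scaled together, the log2 difference was -1.20 in U251 (SE 0.41, adjusted p = 0.0497). It was -0.71 in U343 (SE 0.14, adjusted p = 0.0082). The U251 value is just inside the threshold and crossed it when any of 6 single libraries was left out, with adjusted p of 0.068 to 0.17, or with no filter beyond 1 read (0.083). The size rested on the RIPSeq controls, at -0.66 without replicate 1 and -2.24 without replicate 2. CCND3 was higher in PABP-bound RNA of U251, by 1.14 (SE 0.22, adjusted p = 0.0063), and in U343 its difference was 0.37 (adjusted p = 0.16). CDK4 was higher in PABP-bound RNA of U343 by 0.65 (SE 0.11, adjusted p = 0.0050), with 0.35 (adjusted p = 0.14) in U251. CCND1 (-0.73, adjusted p = 0.012) and RB1 (-0.31, adjusted p = 0.024) were lower there. In all, 1 of 9 members was lower and 1 higher in U251 (18.2% and 22.3% of all genes), and 3 lower and 1 higher in U343 (15.7% and 18.2%). The control libraries are those of the miR-137 comparisons, so these differences are not independent of the responses above. Leaving out U251 RNASeq control replicate 1 or 2 ended the CCND3 call (adjusted p = 0.081 or 0.058), and leaving out single U343 control libraries left 1 or 2 calls of the 4.

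Between the lines, the control libraries of RNASeq differed for 7 of 9 members, a share near that of all genes tested (76.8% in either direction). In U343 CDK6 was lower than in U251 by 2.54 times (log2 difference -1.35, SE 0.15, adjusted p = 4.5e-05), and CCNE2 (-0.73), RB1 (-0.71), CCND1 (-0.70) and CDK4 (-0.43, adjusted p = 0.020) were lower too. CCND3 was higher in U343 by 3.27 times (1.71, SE 0.18, adjusted p = 4.1e-05) and CDKN1B by 1.79 times (0.84, SE 0.15, adjusted p = 0.00091). CDK2 differed by 0.12 (interval -0.17 to 0.41). The CDK4 call was lost with upper-quartile normalization (adjusted p = 0.054) and without U251 RNASeq control replicate 2 or U343 RNASeq control replicate 1 or 2 (adjusted p = 0.13, 0.13 and 0.081). These 5 lower and 2 higher members stand against 35.9% and 40.9% of all genes. U251 libraries were made with random hexamers and a Nextera kit and U343 libraries with a TotalScript kit before Nextera, so the line and the library preparation cannot be told apart.

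**Figure D3:**
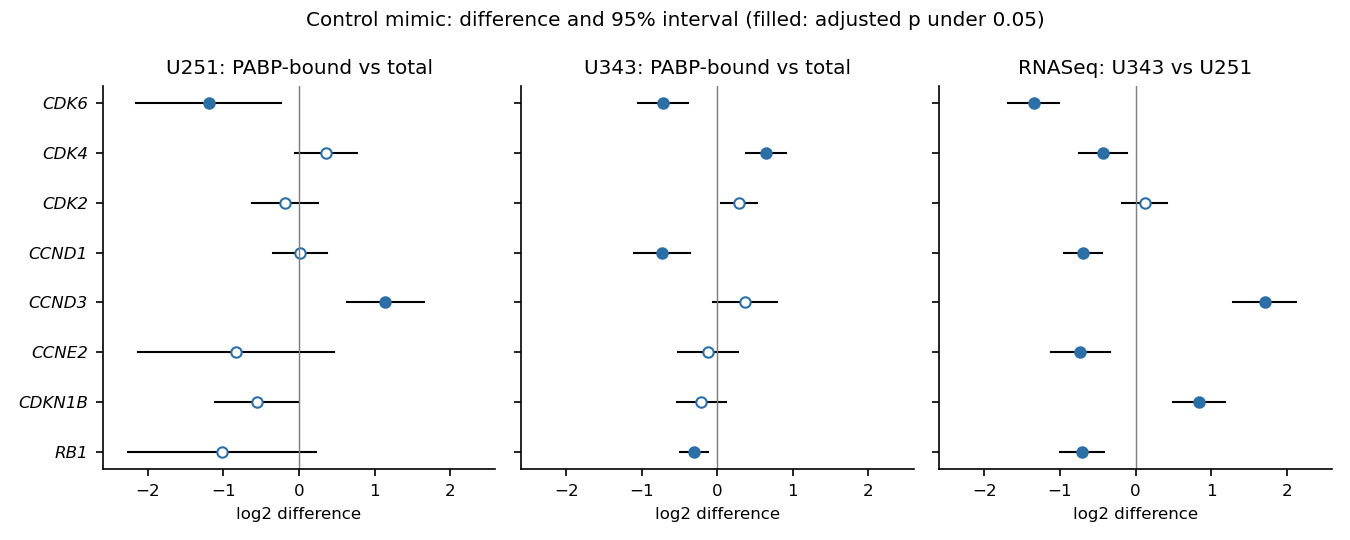
Log2 differences (x axis) among control libraries for 8 regulators, with 95% intervals and filled points where the adjusted p of edgeR was under 0.05. The left and middle panels show PABP-bound against total RNA in U251 and U343, and the right panel U343 against U251 in RNASeq. CDK6 is left of 0 in all 3 panels, at -1.20, -0.71 and -1.35, and CCND3 is right of 0, at 1.14, 0.37 and 1.71.

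The response itself differed between the lines in RNASeq for 3 of 9 members, all less negative or more positive in U343 (12.5% of all genes in that direction). For CDK6 the difference was 0.75 on the log2 scale (SE 0.20, adjusted p = 0.031), between a fall of 11.6 times in U251 and of 6.87 times in U343. For CDK4 it was 0.81 (SE 0.20, adjusted p = 0.020) and for CCND1 0.52 (SE 0.16, adjusted p = 0.044), while CDKN1B, at 0.67, missed the threshold (adjusted p = 0.052). Leaving out U251 RNASeq control replicate 2 or either U343 RNASeq control left 0 of these calls, and leaving out U251 RNASeq control replicate 1 or either U251 RNASeq miR-137 library left 1. Without the U343 RNASeq miR-137 library with interferon genes at the control level, the CDK6 difference was 0.83 (adjusted p = 0.011). In RIPSeq 0 members passed (3.28% of all genes), with 0 at an unadjusted p under 0.05 in edgeR and 0 called by DESeq2 (12.6%). The CDK6 difference of 0.37 there had an interval from -0.99 to 1.73.

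The summed level of the 12 interferon-stimulated genes was above that of all control libraries in 7 of the 8 miR-137 libraries. By edgeR 12 of 12 were higher in U251 RNASeq, 11 in U251 RIPSeq, 0 in U343 RNASeq and 11 in U343 RIPSeq. In U343 RNASeq 5 were higher at an unadjusted p under 0.05, and DESeq2 called 8 higher (13.1% of all genes). Of the list, MX1, an antiviral GTPase, was at 4.62 to 9.79 RPM with miR-137 in U343 RNASeq and at 9.59 to 9.68 in its controls. In the exception, U343 RNASeq miR-137 replicate 1, the 12 genes were at 242 RPM and CDK6 at 81.3 CPM, below both controls and below replicate 2, which had the interferon genes at 13161 RPM. CCNE2 (7.86 against 11.1 CPM) and CDK2 (88.1 against 104) were also lower in that library than in replicate 2, and so was CCND3 (163 against 228). CDK4 (332 against 272 CPM) and CDKN1B (174 against 129.8) were higher in it. The part of the interferon difference in these values was not tested.

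**Figure D4:**
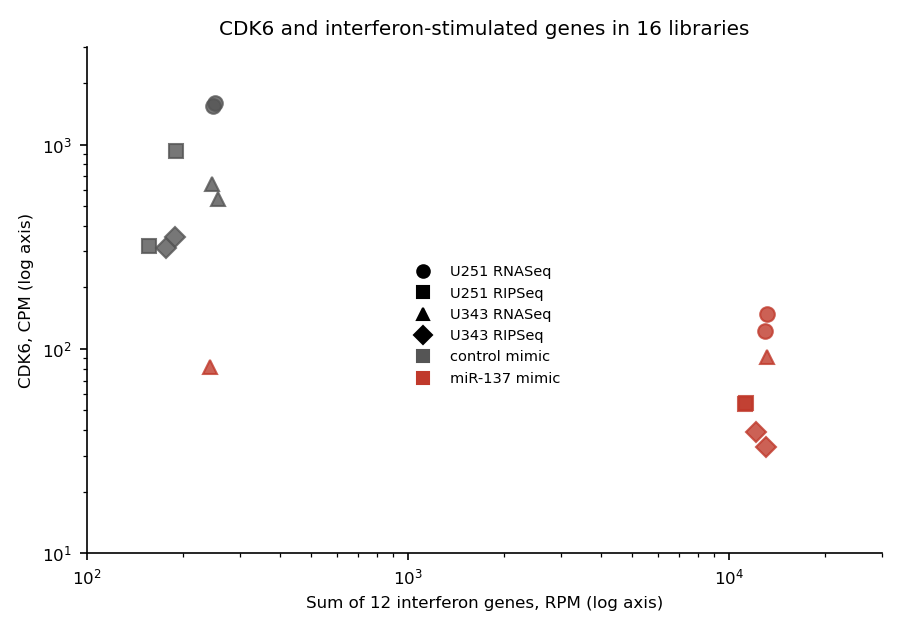
CDK6 in CPM (y axis, log) against the summed RPM of 12 interferon-stimulated genes (x axis, log) in each of the 16 libraries, by experiment (symbol) and transfection (colour). The 8 control libraries are at the upper left, 7 miR-137 libraries at the lower right, and U343 RNASeq miR-137 replicate 1 at the lower left, with 242 RPM of interferon genes and 81.3 CPM of CDK6.

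The rest of the G1 machinery was followed in 24 other genes. Of those tested, 10 of 19 were lower and 3 higher in U251 RNASeq, 9 of 22 lower and 2 higher in U343 RNASeq, and 14 of 22 lower and 4 higher in U343 RIPSeq, against medians over all genes of 0.02, 0.02 and 0.00 and over the list of -0.34, -0.38 and -0.35. Of all genes tested, 29.0% were lower and 28.7% higher in the first, 11.7% and 8.31% in the second, and 27.8% and 28.5% in the third. In U251 RIPSeq edgeR called 0 of 19, with a median of -0.17, while 4 were lower and 0 higher at an unadjusted p under 0.05. DESeq2 called 2 lower there (2.45% of all genes). CCNE1, the other cyclin E, changed most of the list in each of the 3, from 34.4 ± 3.5 CPM to 5.50 ± 0.25 (SD, n = 2 libraries) in U251 RNASeq, from 36.4 ± 0.2 to 8.60 ± 0.28 in U343 RNASeq and from 36.5 ± 0.1 to 11.5 ± 0.1 in U343 RIPSeq. E2F1, an E2F factor that RB1 holds, fell by 2.23 on the log2 scale in U251 RNASeq (adjusted p = 7.9e-08) and by 1.21 in U343 RIPSeq (adjusted p = 4.8e-05). SKP2, part of the ligase that degrades CDKN1B, fell by 1.68 and 1.16 in the same experiments. In U251 RNASeq CDKN1C, a relative of CDKN1B, fell by 1.13 from 3.51 to 1.61 CPM. In U343 it was more abundant and rose, from 27.3 ± 4.2 to 59.5 ± 6.4 CPM in RNASeq (log2 fold change 1.12, adjusted p = 0.017) and from 24.9 ± 0.1 to 50.7 ± 4.5 in RIPSeq (1.02, adjusted p = 8.2e-05). The other genes of the list that rose, named after their values were seen, were the E2F factors E2F3 (0.70), E2F4 (0.31) and E2F5 (0.86) in U251 RNASeq, the CDK4 and CDK6 inhibitor CDKN2D (0.69) in U343 RNASeq, and CDKN1A (0.81), the p21 inhibitor, E2F4 (0.41) and E2F5 (0.44) in U343 RIPSeq. There E2F3 was among the lower genes (-0.43). In U343 E2F2 fell by 1.83 in RNASeq and 1.26 in RIPSeq, and in RNASeq RBL1, a relative of RB1, fell by 1.47 and CDC25A, a phosphatase that activates CDK2, by 1.46.

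Genes of DNA replication that E2F factors switch on were lower almost throughout. Of 16, 14 fell in U251 RNASeq, 16 in U343 RNASeq and 16 in U343 RIPSeq, 0 rose, where 29.0%, 11.7% and 27.8% of all genes tested were lower, and the medians were -0.89, -1.38 and -1.01 on the log2 scale. In U251 RIPSeq edgeR called 0 of 16, with a median of -0.51, while 6 were lower at an unadjusted p under 0.05. DESeq2 called 1 lower there (2.45% of all genes). MCM6, a subunit of the replicative helicase, fell by 1.59 in U251 RNASeq and 1.80 in U343 RNASeq, CDT1, which loads that helicase, by 1.85 in U343 RNASeq, and RRM1, a subunit of ribonucleotide reductase, by 1.68 in U343 RIPSeq. In RefSeq promoters of GRCh38.p14 (250 bases before to 50 after the start), the letters TTTCCCGC, TTTCGCGC, TTTGCCGC or TTTGGCGC, known forms of the E2F site, stood on either strand in 9 of 13 of these genes with a promoter in the table. They stood in 0 of the 6 regulators, out of 10, with a promoter there and in 3.99% of all 27305 promoters, which says only where the letters are. The regulators without a promoter there were not examined. The 16 genes were listed as E2F targets, so neither their share nor its contrast with the regulators is a test.

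The genes whose levels went most like those of CDK6 over the 16 libraries were CCNI (Pearson's r = 0.995), ZDHHC3 (0.994), KDM1A (0.991), METTL9 (0.990) and RAVER2 (0.990), among 9897 genes with at least 10 CPM on average. The values were log2(CPM + 1), centred within each experiment, so that mainly the difference between the transfections, which the libraries share, sets r. Their mean log2 differences between miR-137 and control in the 4 experiments ran from -1.01 to -1.63 for CCNI and from -1.66 to -2.02 for RAVER2. With Spearman's rho in place of r, 0 of these 5 genes were among the first 5. Of the regulators, CDK2 (r = 0.87) and CDK4 (0.80) went most like CDK6, then CCNE2 (0.62) and CDKN1B (0.28), while RB1 (-0.12), CCND1 (-0.48) and CCND3 (-0.70) had r below 0.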

How the data were processed

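The authors aligned reads with RMAP, using hg18, merged the RefSeq isoforms of each gene into 1 super-transcript and deposited raw counts of reads on it, not normalized. Their handling of strand and of reads with several positions is not given in the sources used here. An additional U251 replicate that the methods mention was not analysed here. SLC35E2 is on 2 lines of the U251 tables and the first was kept. The label of each sample gave its line, assay and mimic, with 2 libraries in each of these groups. The depth of 10156675 to 45134766 counted reads sets the counting precision.

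Each experiment was tested with edgeR 4.0.16 (quasi-likelihood F test, TMM, filterByExpr) in R 4.3.3, with Benjamini-Hochberg adjustment over all genes tested and a threshold of 0.05. SE was the log2 fold change divided by the root of F. Interactions and differences between control libraries used fits of 8 libraries. The study's rule was rerun as two-sided Fisher tests and mirrored for rises. The alternatives were DESeq2 1.42.0, other scalings and filters, a replicate block, a joint fit of each line, and leaving out each library. The edgeR test of miR-137 against control was run on simulated counts, and Fisher p-values of random tables were checked against a direct sum. The interactions, DESeq2, blocks, joint fits and fits with a library left out were not tested in this way.

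Named genes were all 10 members, CDKN2A and CDKN2B, the called genes with the largest change in each experiment (up to 4 of the list of other G1 genes and 2 of the E2F targets), and the 5 genes most like CDK6. 1 gene that the rule names is not reported here. The members and lists were chosen with earlier results of these data known.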

Additional observations from a re-analysis of the deposited data

Results flagged for a closer look

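The responses of 3 regulators in RNASeq differed between the cell lines by the test of the difference itself (U343 response minus U251 response). The differences were 0.75 on the log2 scale for CDK6, 0.81 for CDK4 and 0.52 for CCND1. For CDK6 both responses were negative (-3.53 in U251 and -2.78 in U343). CDK4 had a log2 fold change of -0.86 in U251 and -0.05 in U343, and CCND1 had -0.22 and 0.30, neither of which passed the threshold on its own. The DESeq2 test of the same differences gave adjusted p of 0.0015 for CDK6, 0.00047 for CDK4 and 0.0063 for CCND1, and upper-quartile normalization gave 0.043, 0.028 and 0.072 in edgeR. The lines also differed in library preparation, and the part of it in these differences cannot be told apart. In RIPSeq the same 3 differences did not pass the threshold.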

How the results depend on the processing

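Direction and side of the threshold held for 302 log2 differences under alternative settings and for 241 with 1 library left out. For miR-137 against control and U343 against U251 these cover all members but CCND2 and CDKN2C. In the other comparisons they cover only the members whose log2 differences are given above, so the members left out there are not counted. Under other settings 9 lost the threshold, 12 gained it and 13 changed sign, and with 1 library left out these were 48, 27 and 20. The cause was not tested. With 1 of 2 libraries left out, the lone library was assumed to vary like the other groups. The share of all genes called moved too, so the member counts below are not read as changes of the regulators. For miR-137 against control, the joint fits called 20.8% of all genes in U251 RNASeq and 16.6% in U251 RIPSeq. They called 32.7% in U343 RNASeq and 45.7% in U343 RIPSeq.

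For miR-137 against control, U251 RNASeq had 3 members called in the joint fit of the line, and 4 to 5 with 1 library left out. U251 RIPSeq had 1 with DESeq2, 2 in the joint fit, and 1 to 8 with 1 library left out, the most without control replicate 1 (8, where 68.1% of all genes were called) and control replicate 2 (7, 74.4%). U343 RNASeq had 0 to 5, with 0 members and 0 genes in all without either control replicate and 5 without miR-137 replicate 2. U343 RIPSeq had 2 in the joint fit and 3 to 5 with 1 library left out.

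By the pairwise rule and its mirror for rises, an odds ratio over 1.5 gave 2 members in U251 RNASeq, 2 in U251 RIPSeq and 3 in U343 RNASeq. TMM-scaled totals gave 2 in U251 RNASeq. Leaving out 1 library gave 1 to 2 in U251 RNASeq, 2 without miR-137 replicate 2, and 1 to 3 in U251 RIPSeq, 2 without control replicate 1 and 3 without control replicate 2.

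PABP-bound against total RNA gave 1 member in U251 with no filter beyond 1 read (25.0% of all genes). With 1 library left out it gave 0 to 8 in U251, 0 without either RNASeq control and 8 without RIPSeq control replicate 2 (76.7% of all genes), and 1 to 6 in U343. The interaction with assay gave 0 to 7 members in U251, 4 without RIPSeq control replicate 1 (20.1% of all genes) and 7 without control replicate 2 (58.0%). In U343 it gave 1 with DESeq2 and 0 to 1 with 1 library left out, the 1 without RNASeq miR-137 replicate 2. The interaction with cell line gave 0 to 3 in RNASeq and 0 to 4 in RIPSeq, 4 without U251 RIPSeq control replicate 1 or 2 (33.7% and 52.8% of all genes).

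The replicate numbers pair nothing that the labels name, and the deviations of same-numbered libraries correlated at 0.07, -0.12, 0.12 and 0.43 in U251 RNASeq, U251 RIPSeq, U343 RNASeq and U343 RIPSeq. With a replicate block 1 member was called in U251 RIPSeq, CDK6, and 6 in U343 RIPSeq against 4, with CDK4 (-0.26, adjusted p = 0.033) and CCND1 (0.33, adjusted p = 0.0080) gained, and the counts of the other comparisons stayed the same. Crossed pairing in U251 RIPSeq, chosen after seeing the data, also gave 1.

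Among the log2 differences counted above, every change of sign was in a value that had not passed the threshold with all libraries and the settings of the report. In U251 RNASeq, CCND1 was 0.041 with totals not scaled, CCND3 was -0.022 with DESeq2 and -0.032 with no filter beyond 1 read, and RB1 was -0.0016 and -0.011. Upper-quartile normalization gave RB1 0.00056 in U343 RNASeq and 0.0028 in U343 RIPSeq, and moved the median of all genes in U251 RNASeq from 0.02 to 0.16. CCNE2 in U251 RIPSeq was 0.077 with totals not scaled, 0.33 with the replicate block and 0.33 with crossed pairing. The CDK6 interaction with assay in U251 was 0.045 with DESeq2, 0.067 with no filter beyond 1 read and 0.16 with the replicate block. With 1 library left out, that interaction ran from -0.51 to 1.01 and the CDK6 interaction with cell line in RIPSeq from -0.62 to 0.93, both ends set by U251 RIPSeq control replicates. In U251 RIPSeq the ranges were -0.79 to 1.57 for CCNE2, -0.26 to 0.094 for CDK2, -0.53 to 0.24 for CDKN1B and -0.13 to 2.09 for RB1. They were -0.076 to 0.12 for CCND3 and -0.083 to 0.17 for RB1 in U251 RNASeq, -0.069 to 0.41 for CCND3 and -0.20 to 0.091 for CDK4 in U343 RNASeq, and -0.0048 to 0.15 for CDKN1B and -0.076 to 0.016 for RB1 in U343 RIPSeq.

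Levels per transcript length were not run, because transcript lengths were not used here. With 2 libraries per group, the spread is estimated from few libraries, and depth limits CCND2 and CDKN2C.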
